A study of Mus musculus with 2 samples.

Results

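Transcripts of 9 genes for secreted inflammatory signals and for the inhibitors that switch NF-kB off were followed across single mouse fibroblasts sorted by a clock reporter. The 9 genes were chosen by name: the CC chemokines Ccl2 and Ccl7, the CXC chemokines Cxcl1, Cxcl5 and Cxcl12, the growth factor Csf1, the cytokine Il6, and the feedback inhibitors Nfkbia and Tnfaip3. The count table held 33757 features, and 8 of the 9 genes were matched to 1 row each through their Ensembl identifiers. Cxcl12 was not analysed here. All 8 passed the filter on low counts.

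The cells were NIH3T3-Rev-VNP1-H2B-iRFP, a derivative of the mouse fibroblast line NIH3T3 that carries a Venus reporter of the clock gene Nr1d1 and an H2B-iRFP marker, in which a near-infrared protein is attached to a histone. Every cell carried both reporters and came from unsynchronized, untreated culture at 95% confluency, about 5 days after seeding. Cells were trypsinized and sorted singly into 2 plates of 384 wells for FLASH-seq, which reads whole transcripts of individual cells. Plate 1 held the high RFP sort and plate 2 the low RFP sort, per the sorting record, so plate and iRFP level cannot be told apart. Each plate held 4 Venus gates of 96 wells, called bin 1 (dimmest) to bin 4 (brightest), and each bin filled its own 6 columns of wells. Whether the plates came from separate cultures is not stated, so the spread behind the p-values may be technical. With a plate term in the fit, that spread is how far the bins disagree between plates, and not the plates' mean difference.

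Chemokines are small secreted proteins that draw leukocytes along a concentration gradient, and fibroblasts are one of their tissue sources. Many are transcribed when NF-kB enters the nucleus, and NF-kB also induces its own inhibitors: Nfkbia encodes IkB-alpha, which holds NF-kB in the cytoplasm, and Tnfaip3 encodes A20, a ubiquitin-editing enzyme that shuts the upstream pathway. Nr1d1 encodes Rev-erb alpha, a transcriptional repressor of the circadian clock that is known to repress Ccl2 in macrophages.

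The stretches of 250 bases before the annotated start of the 3 genes below are shown because these genes passed the test along the Venus bins and RefSeq's promoter table (GRCm38.p6) holds them. Capitals mark matches to the 10-letter NF-kB consensus on either strand.
Cxcl1 promoter, chr5:90890995-90891244, plus strand: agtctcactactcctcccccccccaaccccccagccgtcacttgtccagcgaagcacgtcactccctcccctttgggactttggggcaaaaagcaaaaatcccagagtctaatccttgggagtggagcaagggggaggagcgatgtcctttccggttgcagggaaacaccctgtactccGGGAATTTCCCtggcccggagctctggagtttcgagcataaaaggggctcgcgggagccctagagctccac
Csf1 promoter, chr3:107760470-107760719, minus strand: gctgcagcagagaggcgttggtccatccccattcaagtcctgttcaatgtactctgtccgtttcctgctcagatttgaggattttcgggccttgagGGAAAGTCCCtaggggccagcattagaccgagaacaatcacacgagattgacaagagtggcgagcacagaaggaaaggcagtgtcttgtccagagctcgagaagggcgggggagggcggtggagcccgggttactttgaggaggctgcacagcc
Nfkbia promoter, chr12:55492648-55492897, minus strand: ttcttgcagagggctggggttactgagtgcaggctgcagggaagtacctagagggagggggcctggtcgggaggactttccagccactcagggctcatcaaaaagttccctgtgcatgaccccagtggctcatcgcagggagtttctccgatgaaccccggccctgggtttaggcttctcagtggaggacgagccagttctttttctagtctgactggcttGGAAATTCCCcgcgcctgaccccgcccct
The Cxcl1 window held overlapping matches on both strands, which begin 71 and 70 bases before the start. The match in Csf1 began 154 bases before the start, on the minus strand of the window, and reads GGGACTTTCC there. The match in Nfkbia began 29 bases before its start and reads GGGAATTTCC on the minus strand of the window. The windows of Il6 and of 1 of 2 annotated starts of Tnfaip3 also held a match, at 44 bases before the start for Il6 (GGGATTTTCC) and at 125 and 12 bases for Tnfaip3 (GGGACACCCC and GGGGATTTCC). The window of Cxcl12 held none. The promoters of Ccl2, Ccl7 and Cxcl5 were not searched here. Across all 32851 promoter windows of this length, 3.90% held such a match. The motif AGGTCA, the core of the element that Rev-erb alpha binds, was in none of the 7 windows searched, which belong to 6 of the 9 genes, on either strand and in 14.0% of all windows. A match here is a description of the letters and not a measured binding site.

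The data passed the basic checks of the sort. After filtering, 762 of 768 cells remained, with 151173 to 1618022 counts each, and their counts were summed into 8 sums per plate and bin of 76042157 to 86612194 counts. YFP, the reporter transcript, and Nr1d1 rose along the bins by 1.63 ± 0.02 and 1.38 ± 0.02 log2 per bin (SE; adjusted p = 8.02e-08 for both by edgeR's quasi-likelihood test). The fibroblast markers Col1a1, Col1a2, Col3a1, Vim and Fn1 had counts in all 762 cells and Pdgfrb in 99.1%, while Dcn was in 69.2%, Thy1 in 51.8% and Lum in 3.41%. The leukocyte markers Ptprc and Tyrobp had counts in 1 cell each and Adgre1 in 2 cells, while Cd14 (92.3% of cells) and Lyz2 (53.0%) were detected widely. The epithelial markers Krt14 and Cdh1 were found in 72.7% and 43.4% of cells, and Epcam in 1 cell. Along the bins 5 of 9 fibroblast markers fell, among them Thy1 (-0.45 ± 0.07 log2 per bin) and Fn1 (-0.26 ± 0.02), and Vim rose (0.11 ± 0.01). Of all 18430 genes tested, 8.64% fell and 6.78% rose at an adjusted p under 0.05 by edgeR. Lyz2, 1 of 2 leukocyte markers tested, rose by 0.22 ± 0.05 (adjusted p = 0.0276 by edgeR), and 0 of 3 endothelial and 0 of 2 epithelial markers were called. No 2 of the count columns were identical, and no cell name was shared between the plates.

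Levels between genes were compared as CPM (counts scaled to the library's total) per kilobase of exon, averaged over the 2 plates. Ccl7 was highest at 106 ± 24 (SD, n = 2 plates), followed by Ccl2 at 57.3 ± 27.5, Nfkbia at 41.5 ± 4.8 and Csf1 at 30.3 ± 1.2. Cxcl5 stood at 7.44 ± 1.78 and Cxcl1 at 5.85 ± 2.80. Il6 and Tnfaip3 were lowest, at 0.442 ± 0.197 and 0.439 ± 0.036. The plates' values overlapped between Ccl2 and Nfkbia, between Cxcl5 and Cxcl1, and between Il6 and Tnfaip3, so those neighbours in the order did not differ beyond their spread. Ccl2 overlaps the predicted gene Gm17268 in GENCODE M21 and nothing says whether counting used strand, so reads of the pair may be shared.

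Along the Venus bins, 4 of the 8 members passed the test, against 15.4% of all 18430 genes tested. Cxcl1 and Cxcl5 rose toward bright Venus (6.78% of all genes did so) and Csf1 and Nfkbia fell (8.64% did so). The median trend of the 8 members was -0.08 log2 per bin, beside 0.00 over all genes tested. Of all called genes 1250 were higher and 1593 lower, while library totals without TMM scaling gave 1575 and 1152, and limma on the mean of log2(CPM + 1) over cells gave 2231 and 1230. All 4 members were also called without TMM, and limma called 3 of them, with 12.1% of all genes higher and 6.67% lower. Only Csf1 was called in a fit without the plate term, in which 9.13% of all genes were called (4.01% higher, 5.12% lower). By edgeR no member was called without bin 4, where 2.01% of all genes were (0.86% higher, 1.15% lower) and 3 members had an unadjusted p under 0.05. Without the cells highest in Ccl2 and Cxcl1, described further on, 2 members were called (Csf1 and Nfkbia), beside 15.5% of all genes (6.74% higher, 8.74% lower).

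**Figure D1:**
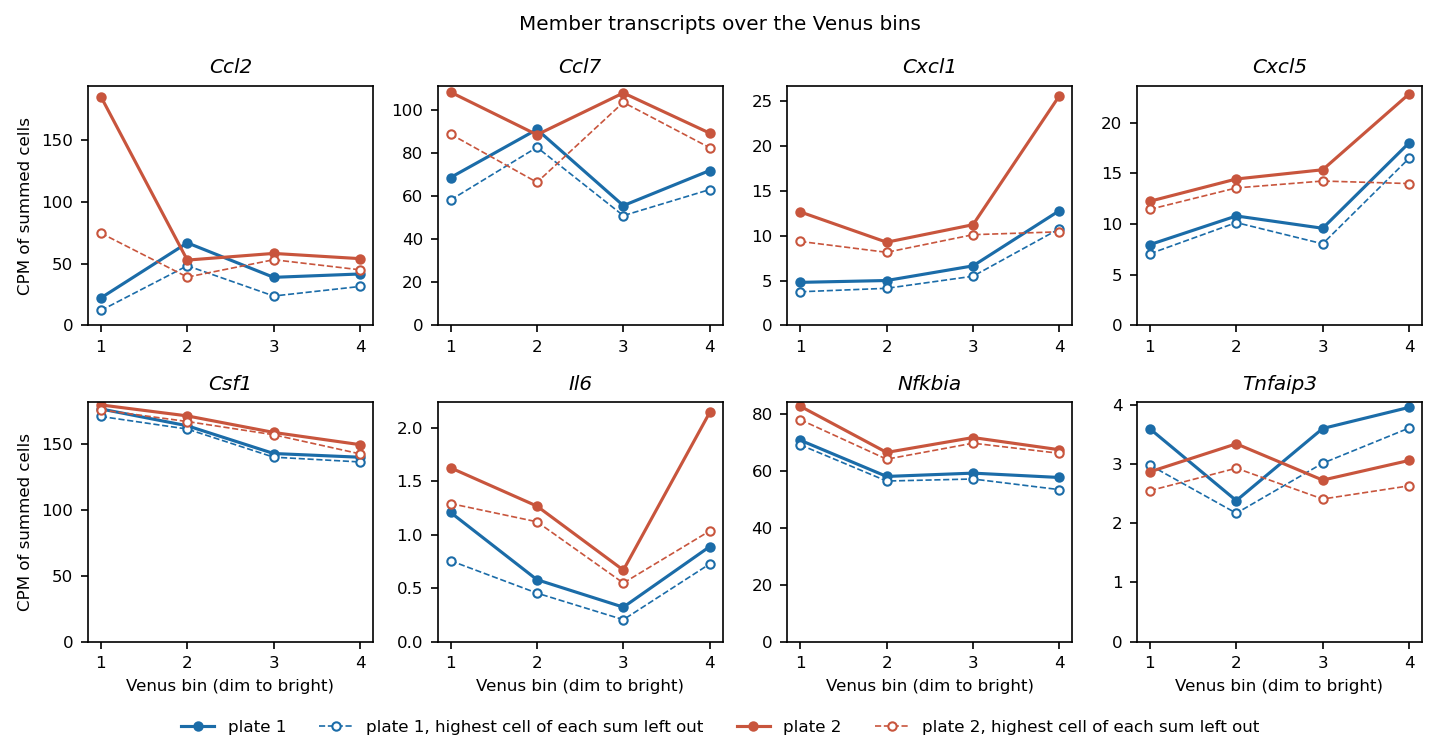
CPM of the summed cells (vertical axes, from 0) of the 8 genes over the 4 Venus bins, for plate 1 (blue) and plate 2 (red); open symbols leave out the single highest cell of each sum. Removing 1 cell takes Ccl2 in bin 1 of plate 2 from 185 to 74.8 CPM and Cxcl1 in bin 4 of plate 2 from 25.6 to 10.5 CPM, and hardly moves Csf1 or Nfkbia.

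Cxcl1, a neutrophil attractant, had 4.81, 5.02, 6.65 and 12.8 CPM in bins 1 to 4 of plate 1. On plate 2 it had 12.7, 9.29, 11.2 and 25.6 CPM. Bin 4 was the highest on each plate, and bin 1 of plate 2 lay as high as bin 4 of plate 1. The trend was 0.38 ± 0.05 log2 per bin (SE), a fitted 2.18-fold rise over the 3 steps, and edgeR's adjusted p was 0.0038. Each plate alone gave a positive slope, 0.44 on plate 1 and 0.32 on plate 2. Without bin 1 the trend was 0.68 ± 0.06, with an adjusted p of 0.0051 by edgeR. However, 1 cell held 1212 of the 2029 Cxcl1 counts of bin 4 on plate 2. Without it and the cell highest in Ccl2, the trend was 0.22 ± 0.10 and edgeR's adjusted p was 0.181. Leaving out the highest cell of every sum gave 0.27 ± 0.09 (adjusted p = 0.0776 by edgeR).

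Cxcl5, another ligand of the neutrophil receptor Cxcr2, ran in parallel. It had 7.97, 10.8, 9.58 and 18.0 CPM in bins 1 to 4 of plate 1. On plate 2 it had 12.2, 14.4, 15.3 and 22.8 CPM. Both values of bin 4 lay above all values of the other bins. The trend was 0.29 ± 0.04 log2 per bin (adjusted p = 0.0037 by edgeR), a fitted 1.83-fold rise over the 3 steps. Without the same 2 cells it was 0.20 ± 0.07 (adjusted p = 0.10 by edgeR), and the cell highest in Cxcl1 also held 713 of the 1806 Cxcl5 counts of its sum.

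A measure on the log scale, which weights cells equally and also compresses high values, kept both calls. With the mean of log2(CPM + 1) over cells, limma gave 0.26 ± 0.06 for Cxcl1 (adjusted p = 0.0070) and 0.25 ± 0.06 for Cxcl5 (adjusted p = 0.0187), where 18.8% of all genes were called. The share of cells with at least 1 Cxcl1 count was 64.6% in bin 4 of plate 1 and 62.8% in bin 4 of plate 2, against 38.5% to 56.3% in the other 6 sums. For Cxcl5 the share was 76.0% and 73.4% in bin 4, against 52.1% to 65.6% elsewhere. Bin 4 thus had the most positive cells for both genes on both plates. The same held for Il6 (14.6% on plate 1 and 19.1% on plate 2), which was not called. On plate 1 it also held for Ccl2, Ccl7 and Tnfaip3, while bin 3 was highest for these on plate 2. The share over all genes was not compared. Neither Cxcl1 nor Cxcl5 was called without bin 4, at 0.06 for Cxcl1 (adjusted p = 0.778 by edgeR) and 0.14 for Cxcl5 (adjusted p = 0.259 by edgeR). The summed fibroblast markers were also lowest in bin 4, at 19477 and 20683 CPM against 22242 to 25907 CPM in the other sums, and the summed leukocyte list, nearly all of it Cd14 and Lyz2, was highest there at 28.7 and 31.4 CPM against 20.6 to 28.0 CPM. The part of these shifts in the results was not tested.

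**Figure D2:**
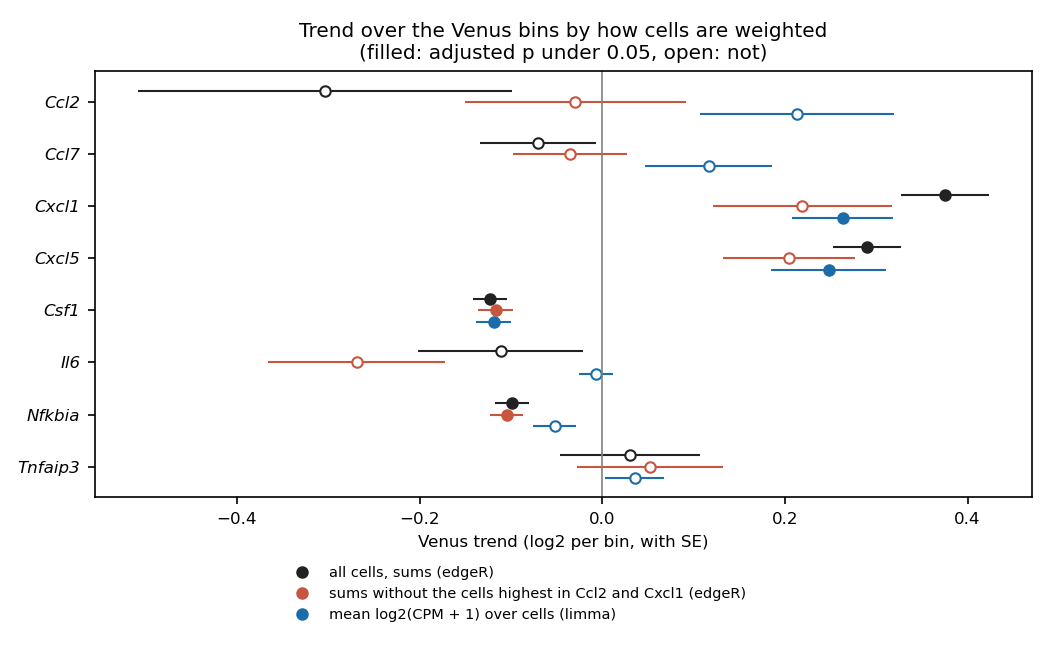
Venus trend of each gene (horizontal axis, log2 per bin, bars are SE) from the sums of all cells, from the sums without the cells highest in Ccl2 and Cxcl1, and from equally weighted cells; filled symbols have an adjusted p under 0.05. Csf1 is filled under all 3, Cxcl1 and Cxcl5 lose the call without the 2 cells, and Ccl2 and Ccl7 change sign with equal weights.

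The monocyte attractants Ccl2 and Ccl7 passed no test along the bins. Ccl2, the main ligand of Ccr2, had 22.3, 66.9, 39.0 and 41.7 CPM in bins 1 to 4 of plate 1. On plate 2 it had 185, 52.9, 58.4 and 54.1 CPM. The lowest and the highest value of the 8 were both in bin 1, on different plates. The trend was -0.30 ± 0.20 log2 per bin (adjusted p = 0.380 by edgeR). A single cell supplied 8804 of the 14676 Ccl2 counts of bin 1 on plate 2, and without it and the cell highest in Cxcl1 the trend was -0.03 ± 0.12 (adjusted p = 0.912 by edgeR). With the mean of log2(CPM + 1) over cells, limma gave 0.21 ± 0.11, with an adjusted p of 0.192.

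Ccl7, which binds several monocyte receptors, is the direct neighbour of Ccl2 on chromosome 11 with no gene between them in RefSeq. It had 68.5, 90.8, 55.5 and 71.7 CPM on plate 1 and 108, 88.3, 108 and 89.1 CPM on plate 2. The bins overlapped fully, and the trend was -0.07 ± 0.06 log2 per bin (adjusted p = 0.522 by edgeR). The mean of log2(CPM + 1) over cells turned its sign as well, to 0.12 ± 0.07 (adjusted p = 0.279 by limma).

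Csf1, the growth factor of macrophages, was the steadiest of the 8. Its values on plate 1 were 176, 163, 142 and 140 CPM from bin 1 to bin 4. On plate 2 they were 179, 171, 158 and 149 CPM. Csf1 thus declined at every step on both plates, and the values of bins 1 and 4 did not overlap. The trend was -0.12 ± 0.02 log2 per bin (adjusted p = 0.0060 by edgeR), a fitted ratio of 0.775 over the 3 steps. It was called without the 2 cells (-0.12 ± 0.02, adjusted p = 0.0088 by edgeR) and without the plate term (-0.12, adjusted p = 0.0123 by edgeR). The mean of log2(CPM + 1) over cells kept the call too (-0.12 ± 0.02, adjusted p = 0.0015 by limma). Without bin 4 the value was -0.13 ± 0.03, with an adjusted p of 0.0883 by edgeR. Bin 4 also had the lowest median mitochondrial share on each plate (8.68% against 9.26 to 9.77%, and 7.02% against 7.24 to 7.91%) and the highest median forward scatter. Across cells Csf1 correlated with the mitochondrial share at 0.19 on plate 1 and 0.21 on plate 2, and at 0.17 and 0.19 within bins. The part of these measures in the trend was not tested.

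Il6, a cytokine of the acute-phase response, was close to the detection limit. It had 1.21, 0.580, 0.323 and 0.890 CPM on plate 1 and 1.63, 1.27, 0.670 and 2.15 CPM on plate 2, from 27 to 170 counts per sum. Bin 3 was the lowest on both plates. The trend was -0.11 ± 0.09 log2 per bin (adjusted p = 0.468 by edgeR), and the cell highest in Cxcl1 held 89 of the 170 counts of bin 4 on plate 2. Without bin 4 the trend was -0.80 ± 0.16 (adjusted p = 0.0579 by edgeR).

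Nfkbia, the inhibitor that retains NF-kB in the cytoplasm, had 70.9, 58.2, 59.3 and 57.8 CPM on plate 1. On plate 2 it had 82.9, 66.6, 71.8 and 67.6 CPM. Bin 1 was the highest on each plate, and bins 2 to 4 lay close together. The trend was -0.10 ± 0.02 log2 per bin (adjusted p = 0.0143 by edgeR), a fitted ratio of 0.814 over the 3 steps. Without bin 1 it was -0.02 ± 0.03 (adjusted p = 0.755 by edgeR). With the mean of log2(CPM + 1) over cells it was -0.05 ± 0.02 (adjusted p = 0.147 by limma).

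Tnfaip3, the A20 gene, had 3.59, 2.38, 3.60 and 3.95 CPM on plate 1 and 2.87, 3.34, 2.72 and 3.06 CPM on plate 2. No order of the bins was shared by the plates, and the trend was 0.03 ± 0.08 log2 per bin (adjusted p = 0.847 by edgeR).

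Between the plates, which differed in the RFP sort, 7 of the 8 members were higher on plate 2, as were 64.4% of all 18430 genes tested, with no replicate and no test. The median ratio over all these genes was 1.04. The ratios of plate 2 to plate 1 were 2.03 for Ccl2, 2.02 for Cxcl1, 1.92 for Il6, 1.41 for Cxcl5, 1.37 for Ccl7, 1.18 for Nfkbia and 1.06 for Csf1. Tnfaip3 had a ratio of 0.889, with a 95% exact binomial interval of 0.814 to 0.971 that covers counting error only. That interval takes reads as independent, although copies made by PCR were not told apart from separate molecules. Without the 2 extreme cells, both on plate 2, the ratio was 1.39 for Ccl2, 1.46 for Cxcl1, 1.55 for Il6 and 1.21 for Cxcl5. For Csf1 it was 1.05 and for Nfkbia 1.17.

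Cells differed more in the chemokines, Il6 and Tnfaip3 than in Csf1 and Nfkbia. Csf1 had a count in all 383 cells of plate 1 and all 379 of plate 2, and Nfkbia in all but 1. Ccl2 was detected in 45.7% of cells on plate 1 (95% exact Clopper-Pearson interval 40.6 to 50.8%) and 59.6% on plate 2 (54.5 to 64.6%). Ccl7 was detected in 83.6% and 84.4%, Cxcl5 in 62.7% and 63.6%, and Cxcl1 in 50.1% and 55.4%. Tnfaip3 reached 28.5% and 28.0% of cells and Il6 10.7% and 16.6%. These intervals take the cells of a plate as independent draws and leave out any spread between plates or cultures.

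The 10% of cells highest in Ccl2 held 85.1% of its counts on plate 1 and 83.8% on plate 2. The same share was 53.4% and 56.5% for Ccl7, 61.6% and 73.7% for Cxcl1, and 50.7% and 51.5% for Cxcl5. For Csf1 it was 21.8% and 21.3%, and for Nfkbia 25.2% and 27.7%. The median over the 12994 genes with a count in at least 20% of cells was 24.6% and 24.8%. The 4 chemokines and Tnfaip3 were thus held by fewer cells than the median gene, and Csf1 and Nfkbia stood close to it. The genes behind that median were not matched to the members for level.

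**Figure D3:**
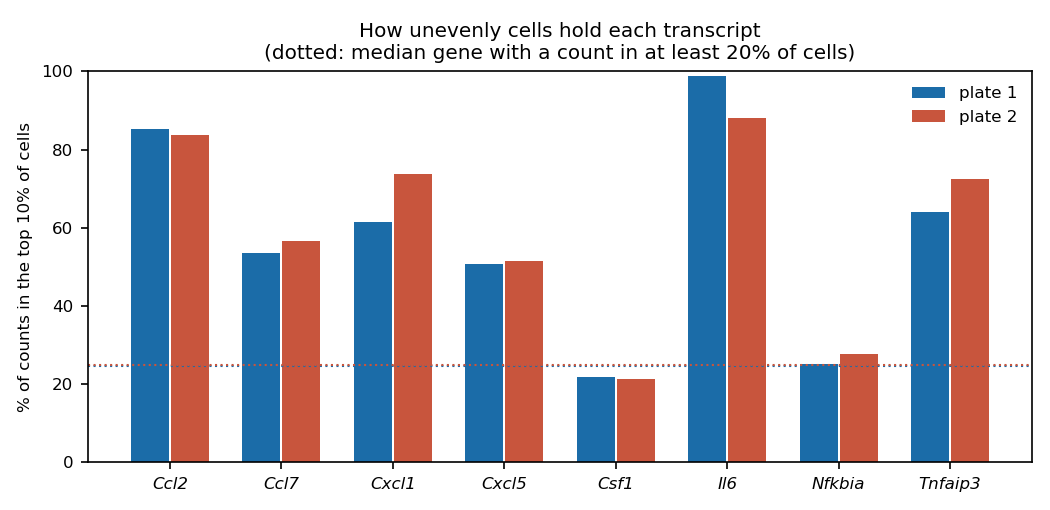
Share of each gene's counts (vertical axis, percent) held by the 10% of cells with the highest CPM, on plate 1 (blue) and plate 2 (red); dotted lines mark the median gene at 24.6% and 24.8%. Ccl2 lies above 80% on both plates, while Csf1 and Nfkbia lie between 21.3% and 27.7%.

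Ccl2 and Ccl7 were high in the same cells. Their Spearman correlation across cells was 0.63 on plate 1 (n = 383 cells) and 0.66 on plate 2 (n = 379), the highest of the 28 pairs on each plate. Of the 38 cells in the top 10% for Ccl2, 22 were also in the top 10% for Ccl7 on plate 1 and 25 on plate 2. Next came Ccl2 with Cxcl5 (0.30 and 0.39), Cxcl1 with Cxcl5 (0.30 and 0.38) and Ccl7 with Cxcl5 (0.24 and 0.33). Cxcl1 and Cxcl5 lie in 1 cluster on chromosome 5, with 4 genes between them in RefSeq. The pair Csf1 and Nfkbia had 0.26 and 0.25. The median over the 28 pairs was 0.13 on plate 1 and 0.14 on plate 2, with 26 and 27 pairs above 0. With cells ranked within each bin the pair of Ccl2 and Ccl7 stood at 0.64 and 0.66. These values are descriptions across cells that share a plate, a sequencing run and differences in depth.

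**Figure D4:**
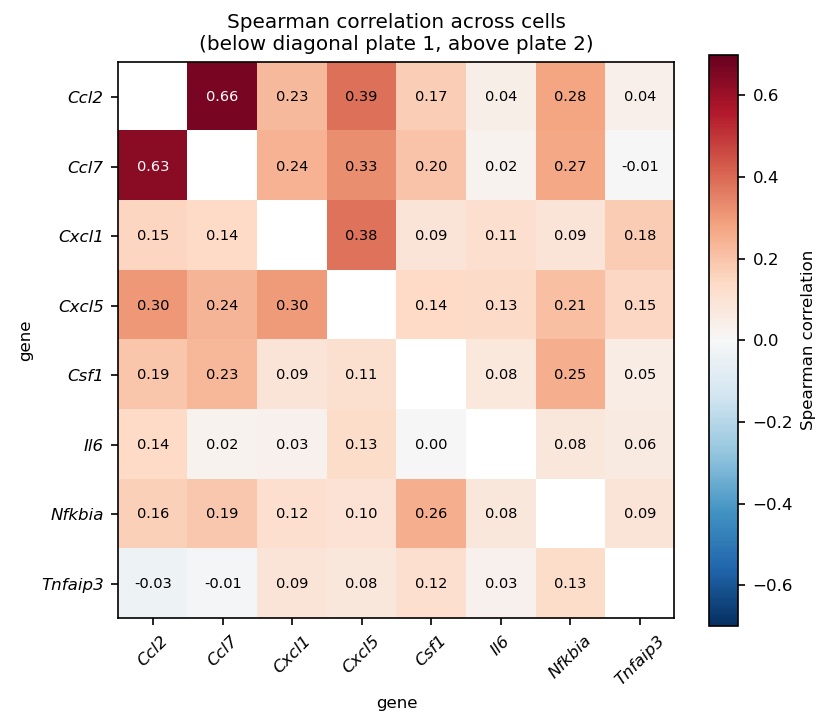
Spearman correlation of CPM across cells for each pair of genes (colour scale centred on 0), plate 1 below the diagonal and plate 2 above it. Ccl2 with Ccl7 is the darkest cell on both sides, at 0.63 and 0.66, and Tnfaip3 is near 0 with both.

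Across cells the chemokines showed weak relations with the reporter transcript. Ccl2 had a Spearman correlation with YFP of 0.08 on plate 1 and 0.11 on plate 2. With cells ranked within bins the values were -0.01 and 0.03. With recorded Venus fluorescence Ccl2 had 0.12 on each plate, and 0.10 and 0.14 within bins. Ccl7 had -0.03 and 0.08 with YFP, and -0.09 and -0.06 within bins. Cxcl1 had 0.14 and 0.12 with YFP, and -0.07 and 0.05 within bins. Cxcl5 had 0.14 and 0.11 with YFP, and 0.02 and 0.03 within bins. Csf1 had the lowest values with YFP, -0.15 and -0.11, which were 0.03 and 0.06 within bins. These weak correlations are given as descriptions only.

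The genes whose pattern was most like each member were taken from 12251 non-member genes, by the mean over plates of the correlation ranked within bins. For Ccl2 they were Rdh10, a retinol dehydrogenase (0.51 on plate 1 and 0.62 on plate 2), Ank (0.45 and 0.48) and Cct5, a chaperonin subunit (0.38 and 0.53). For Ccl7 they were Rdh10 (0.38 and 0.44), the ferritin heavy chain gene Fth1 (0.36 and 0.43) and the galectin gene Lgals1 (0.35 and 0.44). Cxcl5 was most like Ifitm3, Gstm1 and Fgf7, with means of 0.35, 0.35 and 0.34. Csf1 was most like Cpq, Ghr and Fgf7 (0.35, 0.35 and 0.33). Nfkbia was most like Pfdn5, Eif3h and Sertad4 (0.30 for each), and Cxcl1 was most like the actin-binding genes Tpm1 and Cnn2 and the channel gene Cacna1a, with means of 0.26, 0.25 and 0.25. Tnfaip3 reached only 0.19 with Col1a2, C1ra and Lox.

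These are 19 different genes, since Rdh10 and Fgf7 are each named for a pair of members, and 7 of the 19 lie on chromosome 15, which carries 4.10% of the 12251 genes compared. The share of a cell's counts from chromosome 15 genes, a measure examined after this was seen, correlated with Ccl2 at 0.43 on plate 1 and 0.54 on plate 2, the highest of 20 chromosomes on each plate. With chromosome 16 the correlation of Ccl2 was -0.32 and -0.49, the lowest of the 20 by the mean over plates. Ccl7 likewise had its highest mean with chromosome 15, at 0.28 and 0.40. Neither gene lies on chromosome 15 or 16. Csf1, on chromosome 3, correlated with the rest of its own chromosome at 0.25 and 0.22. However, among whole-chromosome shares Csf1 had its highest mean with chromosome X, at 0.26 and 0.27. Cxcl1, on chromosome 5, had its highest mean with chromosome 3, at 0.22 and 0.25. Nfkbia had -0.07 and 0.02 with the rest of chromosome 12. These are descriptions over 383 and 379 cells, and chromosomes were assigned from GENCODE M21.

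The cell that set the Ccl2 sum stood apart in several NF-kB genes and in the balance of its chromosomes, and it was chosen for description after its values were seen. It lay in bin 1 of plate 2 with 695748 counts and 9804 genes, and held 12654 CPM of Ccl2 where the next cell of the plate held 3106 CPM. Ccl7 was also the highest of the 379 cells at 2301 CPM. Csf1 (602 CPM) and Tnfaip3 (38.8 CPM) had rank 2 and Cxcl1 (160 CPM) rank 3. Il6 had no count.

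Nfkbia had no count in that cell, the only one of 762 with none. A count of 0 allows up to 4.31 CPM (3 counts of the cell's total) by read counting error alone, which leaves out loss of molecules before sequencing. The plate median was 58.3 CPM. Genes of chromosome 12, which carries Nfkbia, made up 0.150% of its counts, where the median of the other cells was 2.22% and the next lowest cell had 0.719%. Other chromosomes stood apart in the same cell too. Chromosome 16 was also at its lowest of all cells (0.926% against 2.26%), and chromosomes 8 and 18 had rank 3 and rank 4 from the bottom. Chromosomes 2 and 11 had rank 761 of 762. The chromosome 11 share includes Ccl7 and Ccl2, by which the cell was chosen, and was not computed without them. Of 206 chromosome 12 genes with a plate median of at least 20 CPM, 161 (78.2%) had no count in it. Over the other chromosomes 177 of 6162 such genes (2.87%) had none, with at most 14.4% on any 1 chromosome. In the other cells the share of chromosome 12 genes without a count had a median of 0.485%, and the highest was 32.0%. The cell with 0.719% of its counts from chromosome 12 had 5 Nfkbia counts and no Ccl2.

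The NF-kB genes in the cell were mixed. Of 23 tested genes of the feedback and target list, 8 (34.8%) were at their highest on the plate, beside 1.25% of all 18430 genes tested. Above the plate median were 15 of the 23 (65.2%), beside 31.9% of all genes, and 5 had no count (21.7%, beside 47.5%). The shares above the median and without a count were not particular to that list. Of the 22 core genes 72.7% were above the median, 18.2% had no count and 4.55% were at their highest. Of the 15 receptors tested the shares were 60%, 6.67% and 6.67%. The 13 further chemokines and cytokines tested had 30.8% above the median and 0 at their highest. Feedback and target genes at their highest included the adhesion molecule gene Vcam1 at 816 CPM (plate median 0) and complement C3 at 1230 CPM (median 0). Also among them were the inhibitor gene Nfkbie at 206 CPM (median 1.33) and Tnip1, a partner of A20, at 338 CPM (median 23.5). Nfkb2, which encodes the NF-kB subunit p100, stood at 474 CPM (median 68.9). Ccl5 had 102 counts and no other cell of the plate had any. In the same list Cyld had no count (median 20.8 CPM), nor did Birc3 (median 3.81 CPM), and Ier3 was low at 14.4 CPM (median 57.3 CPM). The kinase gene Ikbkb of the core list also had no count (median 30.0 CPM). Of the 9 fibroblast markers 0 were above the plate median and 4 were at 0, among them Pdgfrb (median 88.5 CPM), while Col1a1 stood at 4375 CPM. Of the 6 leukocyte markers with a row 5 were at 0, and Lyz2 had 2 counts. The values describe 1 cell, with no replicate.

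The cell that set the Cxcl1 sum differed. It lay in bin 4 of plate 2 with 1019240 counts and held 1189 CPM of Cxcl1, 700 CPM of Cxcl5 and 87.3 CPM of Il6, each the highest on the plate. Nfkbia stood at 170 CPM, rank 22 of 379, and Ccl2 at 120 CPM, rank 44. None of the 23 feedback and target genes tested was at its highest on the plate, beside 1.25% of all genes tested. Its chromosome shares were uneven: chromosomes 18 (4.41% against a median of 1.5%) and 14 (3.69% against 1.89%) were at their highest of all cells, chromosome 4 was at its lowest (1.84% against 5.15%) and chromosome 6 had rank 2 from the bottom. Chromosome 5, which carries Cxcl1, Cxcl5 and Il6, made up 8.54% of its counts against a median of 5.65%, rank 760 of 762 from the bottom. That share includes these genes themselves, among them Cxcl1, by which the cell was chosen.

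**Figure D5:**
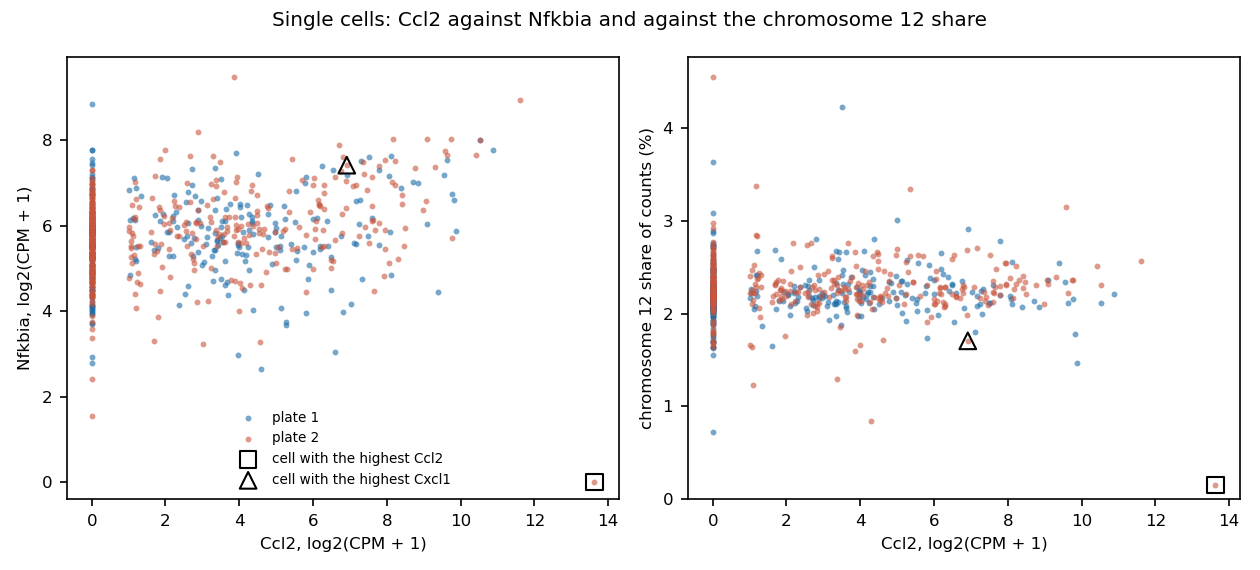
Each point is 1 cell; Ccl2 as log2(CPM + 1) on the horizontal axis against Nfkbia as log2(CPM + 1) (left) and the chromosome 12 share of counts in percent (right), with plate 1 in blue and plate 2 in red. The cell with the highest Ccl2 (square) is the only one with no Nfkbia count and has the lowest chromosome 12 share, at 0.150%.

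Other genes of the pathway were read from lists and compared with the background of 15.4% called. In the list of NF-kB feedback and target genes 7 of 23 tested passed, all higher toward bright Venus, where 6.78% of all genes were higher. The list leaves out the feedback inhibitors among the members, of which Nfkbia fell and Tnfaip3 was not called. The median trend of the list was 0.05 log2 per bin. Ptgs2, which encodes the prostaglandin synthase COX-2, rose by 0.27 ± 0.06 log2 per bin, and Nfkbiz, which encodes an atypical nuclear IkB protein, by 0.22 ± 0.04. The superoxide dismutase gene Sod2 rose by 0.11 ± 0.02, and the deubiquitinase genes Cyld and Otulin by 0.10 ± 0.03 and 0.10 ± 0.02. All 7 were called without the 2 extreme cells, 4 of them without the plate term, 2 without bin 1 and none without bin 4.

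Of 13 further chemokines and cytokines tested of 30 listed, 3 were higher and 2 lower (median 0.01). The CC chemokine gene Ccl8 rose by 0.32 ± 0.07 log2 per bin and Il34, which encodes a second ligand of the Csf1 receptor, by 0.22 ± 0.04. Mif rose by 0.08 ± 0.02. Ccl9 fell, at -0.26 ± 0.04, and so did the membrane-anchored chemokine gene Cx3cl1, at -0.23 ± 0.06. The NF-kB core list gave 1 higher and 2 lower of 22, which is 13.6% and close to the background: Chuk (0.07 ± 0.02), Nfkb1 (-0.08 ± 0.02) and Map3k14 (-0.15 ± 0.03). Of 15 receptors tested 1 was called, Il1r1 at -0.14 ± 0.02. Without the plate term 3 of the 5 chemokine and cytokine calls, 1 of the 3 core calls and 0 of the 1 receptor call were kept by edgeR, and none of these was kept without bin 4.

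Among 14 immediate early genes, 5 fell and 1 rose. Zfp36, which encodes a protein that destabilises cytokine mRNAs, had -0.18 ± 0.03 log2 per bin, Fos -0.17 ± 0.04, Ier2 -0.13 ± 0.02 and Klf2 -0.09 ± 0.02, while Fosl1 rose by 0.33 ± 0.08. Of these 6 calls 2 were kept without the plate term, 4 without TMM and none without bin 4. Of 10 interferon response genes tested Ifit3 and Ifit2 rose, by 0.56 ± 0.13 and 0.19 ± 0.03. Both were called without the plate term, and neither without bin 1 or without bin 4. Every trend in these lists comes from the same 8 sums and the same edgeR fit as the members.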

How the data were processed

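The deposited table held raw counts of reads per gene and cell. STAR 2.7.11a, SAMtools, bedtools, HTSeq and the builds GRCm39 and mm39 are named, without roles, in the submitters' processing notes. The sorting record deposited by the authors gave fluorescence intensity per cell in arbitrary units, the sort gate and the well column. Any use of strand or molecular identifiers is not given in the sources used here.

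The 9 genes, the further lists and the tests were chosen with earlier results of these data known. Cells with at least 1000 genes, at least 0.1 of their plate's median total and at most 25% mitochondrial counts were kept, and no doublet caller was run. Counts were summed per plate and bin. The linear trend (weights of 3 for outer and 1 for inner bins, divided by 10) came from edgeR's quasi-likelihood test (edgeR 4.0.16, R 4.3.3) after TMM scaling and filterByExpr, with terms for bin and plate and 3 residual degrees of freedom, with Benjamini-Hochberg adjustment over all genes and a threshold of 0.05. SEs were derived from the F statistic. The measure on the log scale used limma 3.58.1 on mean log2(CPM + 1) over cells, which weights cells equally and compresses high values. Trends of 1 plate used log2 CPM with a prior count of 2. The fit was also run on counts simulated without a plate effect or dominant single cells, so that run cannot judge such cases.

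Always named were the 9 genes, the reporters, the 3 most similar genes of each member with counts in at least 20% of cells, and up to 5 called members of each list with the largest trend. Symbols, chromosomes and exon lengths came from GENCODE M21, which is not the submitters' build, so only RefSeq promoters carry coordinates. Alternatives covered scaling, filters, DESeq2 1.42.0, the plate term, the form of the trend, thinning to 600000 counts per cell, and leaving out plates, bins or single cells. The single-cell exclusions were chosen after seeing the data.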

Additional observations from a re-analysis of the deposited data

Results flagged for a closer look

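The Venus trends of 3 members had opposite signs on the 2 plates. Each plate is 1 sample, and the differences were not tested. Ccl2 had 0.17 log2 per bin on plate 1 and -0.53 on plate 2, a difference of 0.69. Il6 had -0.23 and 0.02, a difference of -0.25. Tnfaip3 had 0.075 and -0.0098, a difference of 0.085. The plate 2 values of Ccl2 and Il6 each include a cell that held over 50% of the counts of 1 sum, 60% for Ccl2 in bin 1 and 52.4% for Il6 in bin 4.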

How the results depend on the processing

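The plate was the block in the fit reported. With no replicate block, 1683 genes and 1 member (Csf1) were called, in place of 2843 and 4. The additive linear model called 1858 genes. Without bin 1 the fit called 1139 genes, and without bin 4 it called 358 genes and 0 members, 3 of which had an unadjusted p under 0.05 in edgeR. Leaving out the cells highest in Ccl2 and Cxcl1, or the highest cell of every sum, left 2 members called, Csf1 and Nfkbia. All other settings called 2171 to 3596 genes and 3 or 4 members. With the mean of log2(CPM + 1) over cells the signs of Ccl2 (0.21) and Ccl7 (0.12) turned. The sign of Il6 turned without bin 1 (0.32) and without bin 3 (0.027), and that of Tnfaip3 without bin 4 (-0.022). On 1 plate alone the trends ranged from -0.53 to 0.17 for Ccl2, from -0.23 to 0.020 for Il6 and from -0.0098 to 0.075 for Tnfaip3. The causes were not tested. The median correlation over the member pairs was 0.133, 0.125 to 0.142 on the plates alone and 0.130 to 0.143 under the other settings. Il6, with 27 to 170 counts per sum, and Tnfaip3, with 201 to 302, are limited by depth. The planned 36 pairs became 28 because Cxcl12 was not analysed here.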
